A study of Schima superba and Cryptocarya concinna with 24 samples.

Results

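Thylakoid photoprotection and repair proteins guard the photosynthetic membrane against excess light and replace what light destroys. Their transcripts were followed in leaf RNA of *Schima superba* and *Cryptocarya concinna*, trees of a subtropical evergreen forest. The members were the unigenes (assembled transcripts) whose best protein database hit named an early light-induced or one-helix protein, PsbS (photosystem II 22 kDa protein), PGR5 or a PGR5-like protein, an FtsH or Deg (protease Do-like) protease, the kinases STN7 or STN8, THYLAKOID FORMATION1, a plastid lipid-associated protein (fibrillin, plastoglobule) or temperature-induced lipocalin. This wording was met by 116 of 117867 unigenes. *S. superba* contributed 52 of its 57053 unigenes and *C. concinna* 64 of its 60814. No STN7 hit occurred, so the kinase members are all named STN8.

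Seedlings collected from the forest were divided between full sunlight (100%) and 30% of full sunlight under black nylon shading net, and young and mature leaves were sampled. The 24 libraries form 4 groups in each species, one for each pairing of leaf age and light, with 3 replicates per group. No genotype, clone, seedling age or duration of shading is given, and the labels are silent on whether replicates are different seedlings. The p-values therefore reflect the spread among these samples, which may be technical. In whole leaves, fewer cells of a type and less RNA per cell cannot be told apart.

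As background, a leaf that absorbs more light than it can use acidifies the thylakoid lumen, and PsbS senses that acidity and turns on the dissipation of light energy as heat. PGR5 and PGRL1 take part in a cycle of electrons around photosystem I, which adds to the acidity without making NADPH. Light also breaks the D1 protein of photosystem II: in Arabidopsis, STN8 phosphorylates photosystem II core proteins, and the FtsH complex of the thylakoid, helped by Deg proteases, degrades damaged D1 so that a new copy can be inserted. Early light-induced and one-helix proteins are relatives of the light-harvesting proteins that bind pigments under stress or during assembly. Fibrillins coat plastoglobules, the lipid droplets of the thylakoid that store antioxidants.

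The names did not all point to the thylakoid. In *S. superba*, the description named the chloroplast for 24 members, the mitochondrion for 9, both for 2 and neither for 17. In *C. concinna* these counts were 47, 5, 0 and 12. The mitochondrial names belong to FtsH and Deg proteases, families that work in both organelles. The roles were also unevenly filled. *S. superba* had 30 FtsH, 9 Deg, 4 plastoglobule, 3 PsbS, 2 THYLAKOID FORMATION1, 2 early light-induced or one-helix, 1 PGR and 1 STN8 member and no lipocalin. *C. concinna* had 22 FtsH, 16 plastoglobule, 9 Deg, 6 STN8, 3 PsbS, 3 PGR, 3 early light-induced or one-helix, 1 THYLAKOID FORMATION1 and 1 lipocalin member. A unigene is not a gene: names that share a CL number are contigs of one cluster, may share reads and are uncertain one by one. The 52 members of *S. superba* came from 37 clusters or single unigenes, and the 64 of *C. concinna* from 42.

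Levels are the authors' FPKM, fragments scaled by unigene length and by the mapped fragments of the library. The median member had a mean over 12 libraries of 14.04 FPKM in *S. superba* and 7.70 in *C. concinna*, against medians of 4.18 and 3.04 over all tested unigenes. Members spread from 0.0258 to 1662 FPKM in *S. superba* and from 0.0342 to 543 in *C. concinna*, with a PsbS unigene at the top in both. Differences below are on the log2(FPKM + 1) scale, from limma on all 12 libraries of a species, and a unigene is called at a Benjamini-Hochberg adjusted p under 0.05 over all tested unigenes. Testing needed at least 1 FPKM in at least 3 libraries, which 48 members of *S. superba* and 54 of *C. concinna* reached. The other 4 and 10 members had no test. Their highest single values were 2.73 FPKM in *S. superba* and 17.3 FPKM, a contig of STN8, in *C. concinna*.

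Summed over its members, the class was higher in mature than in young leaves in both species and both lights, and the groups of the 2 ages did not overlap. Such a sum is set mainly by the most abundant members. Of the 52 members of *S. superba*, 24 had a positive difference, young minus mature, in each light. Of the 64 of *C. concinna*, 23 did in full and 17 in low light. In *S. superba* the sum was 1354 ± 272 FPKM in young and 6074 ± 1567 in mature leaves of full light (SD, n = 3 for every group), and 1726 ± 191 and 4935 ± 735 in low light. In *C. concinna* it was 1523 ± 42.4 in young and 3535 ± 823 in mature leaves of full light, and 1128 ± 252 and 4009 ± 427 in low light. PsbS made up the largest share of the sum in *S. superba*, with 3449 ± 931 FPKM in mature leaves of full light. FtsH had the largest sum in *C. concinna* in the same kind of leaf, with 1487 ± 541 FPKM, but not in young leaves of low light, where it was 221 ± 78.6 beside 230 ± 53.6 for PsbS. Deg in *S. superba* went the other way, at 108 ± 15.3 in young and 58.0 ± 10.9 FPKM in mature leaves of full light. Most of that difference lay in the 3 contigs of 1 cluster, CL2507, at 73.4 ± 7.97 in young and 26.3 ± 8.44 FPKM in mature leaves.

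**Figure D1:**
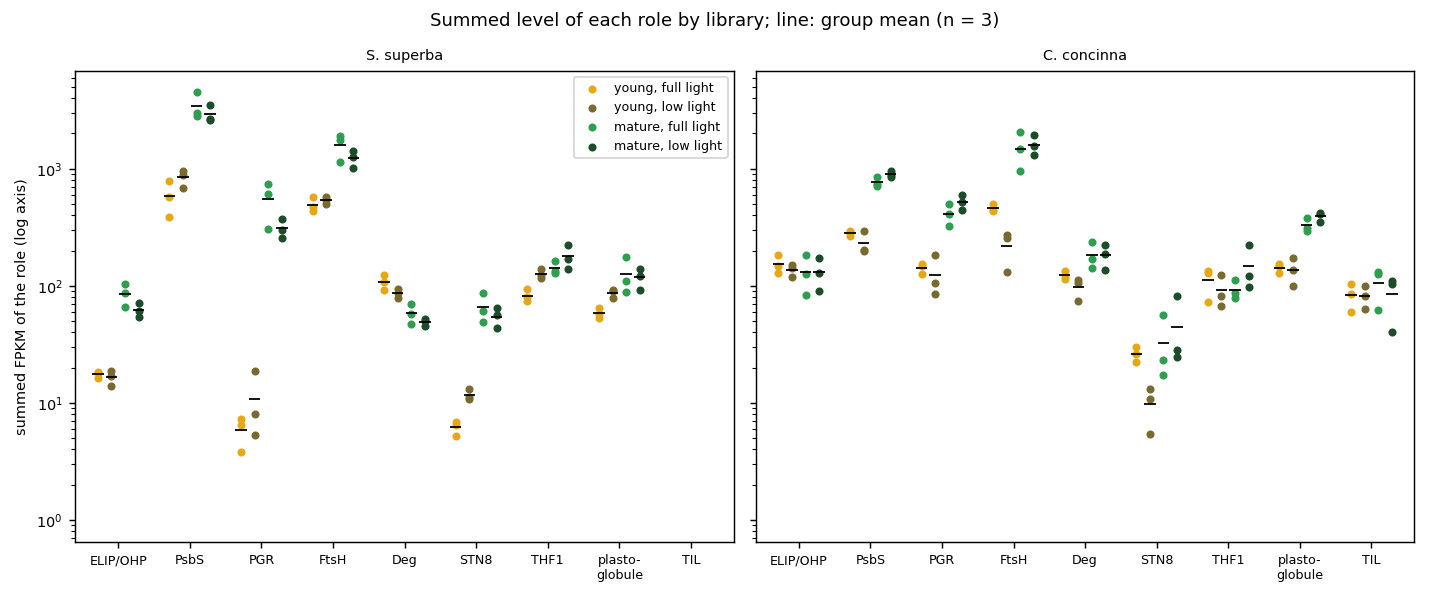
Summed FPKM of each role (log axis) in each library, by leaf age and light, for *S. superba* (left) and *C. concinna* (right); points are libraries and lines are group means of 3. PsbS, PGR and FtsH stand higher in mature than in young leaves in both species, while Deg of *S. superba* stands higher in young leaves (108 against 58.0 FPKM in full light). Of these Deg sums, the 3 contigs of cluster CL2507 held 73.4 and 26.3 FPKM.

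The comparison of leaf ages asks how far the class differs between expanding and finished leaves under each light. In *S. superba*, full light, 20 of the 48 tested members were called, 6 higher in young and 14 higher in mature leaves. Over all 50970 tested unigenes, 46% were called, 36.3% higher and 9.67% lower in young leaves, against 12.5% and 29.2% of the tested members. In low light 18 members were called, 6 higher and 12 lower in young leaves, beside 38.7% of all tested unigenes called, 29.5% higher and 9.19% lower. On this scale the share called at all was near the background, and the share higher in mature leaves was above it. The members' median difference, young minus mature, was -0.11 in full and -0.02 in low light, against 0.47 and 0.33 over all unigenes.

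In *C. concinna* the called members were nearly all on the mature side. In full light 15 of 54 tested members were called, 1 higher and 14 lower in young leaves, beside 28.4% of all 53005 tested unigenes called, 20.2% higher and 8.19% lower. In low light 21 members were called, 0 higher and 21 lower, beside 37.8% of all tested unigenes, 17.1% higher and 20.7% lower. The members' median was -0.25 in full and -0.70 in low light, against 0.11 and -0.23 over all unigenes. The scale between libraries matters for these splits. Rescaling by median ratios moved the median of all tested unigenes in *S. superba* from 0.55 to 0.09 in full light, and the share called on the young side from 79.0% to 57.3% of all calls. After it, 5 members were higher and 22 lower in young leaves of *S. superba* in full light, or 56.2% called, above the 38.7% of all tested unigenes. The lower share was 45.8% of members beside 16.5% of all. In low light the split was 3 to 16, with 33.3% of members lower beside 14.4% of all. In *C. concinna* it was 0 to 18 in full light, with 33.3% lower beside 13.7% of all, and 1 to 21 in low light, with 38.9% lower beside 20.5% of all.

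Groups of the 2 ages did not overlap for 54.2% of tested members of *S. superba* in full and 50.0% in low light, close to the 53.3% and 50.9% of all tested unigenes. In *C. concinna* this held for 42.6% in either light, beside 44.2% and 48.8% of all tested unigenes.

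Calls shared by both lights, which share no libraries, were about as frequent among the members as among all unigenes. In *S. superba* 14 members, or 29.2% of those tested, were called the same way in both lights, beside 29.5% of all tested unigenes. Of these, 4 were higher in young and 10 in mature leaves, which is 8.33% and 20.8% of tested members beside 23.6% and 5.86% of all. In *C. concinna* 12 members, or 22.2%, were called the same way, all higher in mature leaves, beside 20.3% of all tested unigenes (13.6% young-higher and 6.7% mature-higher). One STN8 contig was called in opposite ways. The differences of both lights correlated at r = 0.76 across the tested members of *S. superba* and 0.80 in *C. concinna*, no higher than the 0.78 and 0.84 across all tested unigenes, as a description over unigenes of which some share a cluster.

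**Figure D2:**
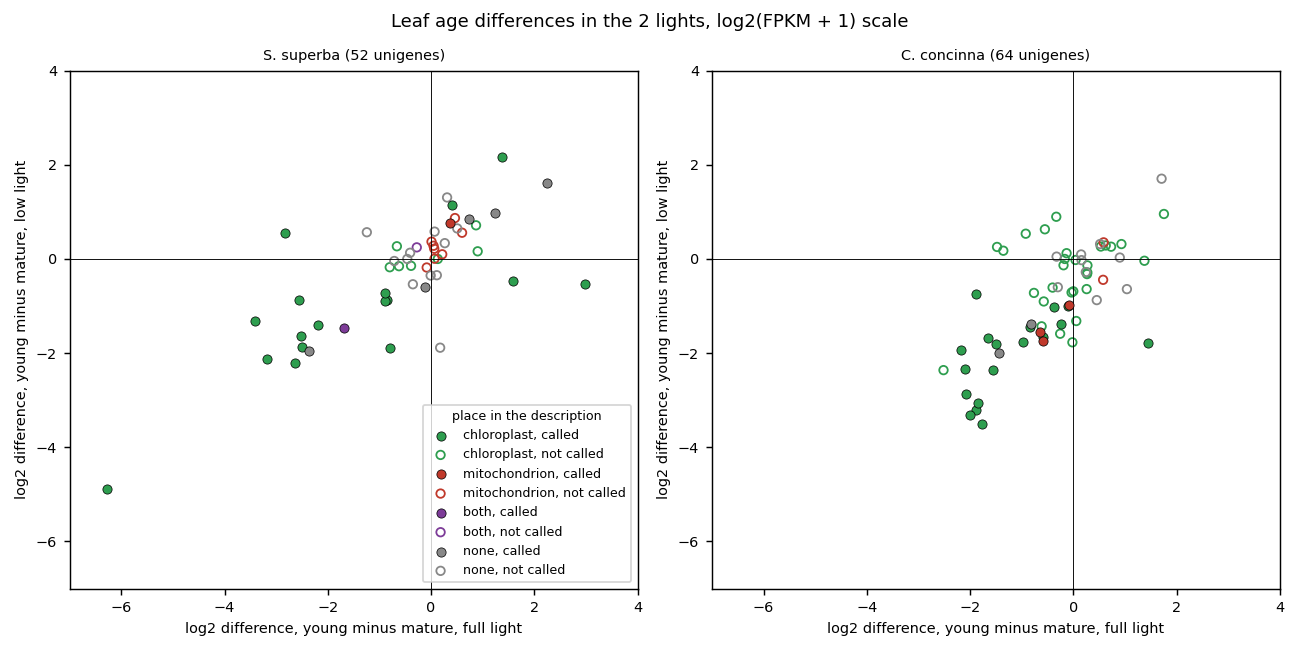
Each point is a member, with its log2 difference between young and mature leaves in full light (x) and in low light (y), for *S. superba* (left, 52 unigenes) and *C. concinna* (right, 64 unigenes). Filled points were called in at least 1 light and colours give the organelle in the description; called points lie mostly at the lower left, higher in mature leaves, and PGR5 of *S. superba* lies farthest out at -6.28 and -4.88.

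PsbS, the sensor of lumen acidity, was the most abundant member. In *S. superba*, Unigene114 stood at 663, 530 and 336 FPKM in young leaves of full light (replicates 1 to 3 here and throughout), 846, 728 and 565 in young leaves of low light, 2241, 3591 and 2633 in mature leaves of full light and 2296, 3074 and 2444 in mature leaves of low light. Every mature library was above every young library, and the 2 lights overlapped in mature leaves. The mean was 5.54 times higher in mature leaves in full light (log2 difference -2.49, SE 0.34, adjusted p = 0.00011) and 3.65 times in low light (-1.88, adjusted p = 0.00115). The other PsbS hits, CL3839.Contig3 and Unigene2081, were also higher in mature leaves of full light, by -2.55 (adjusted p = 0.000275) and -3.42 (adjusted p = 0.000433) on the log2 scale. In low light their differences of -0.87 and -1.32 missed the threshold (adjusted p = 0.101 and 0.0849). The 5 contigs of the CL3839 cluster summed, the other 4 of which carry other descriptions, gave -1.78 (adjusted p = 0.00497) in full light and turned to 0.19 (adjusted p = 0.76) in low light. Unigene2081 rests on a weak hit with an e-value of 1.13e-06.

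In *C. concinna*, PsbS CL7495.Contig1 stood at 265, 284 and 291 FPKM in young and 703, 849 and 735 in mature leaves of full light. Under shade the values were 291, 197 and 199 FPKM in young and 964, 887 and 856 in mature leaves. All 6 mature libraries were above all 6 young ones. The log2 difference was -1.44 (SE 0.21, adjusted p = 0.000388) in full and -1.996 (adjusted p = 2.91e-05) in low light, or 2.72 and 3.94 times higher means in mature leaves. The other PsbS hits of this species were rare, at up to 2.81 FPKM, and both were listed at 0 in all 3 mature libraries of low light.

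PGR5, the core protein of cyclic electron flow around photosystem I, gave the largest difference among the members of *S. superba*. CL6921.Contig2 stood at 6.49, 3.81 and 7.26 FPKM in young leaves of full light and 18.8, 8.10 and 5.35 in young leaves of low light. Mature leaves held 307, 746 and 608 FPKM in full and 370, 258 and 300 in low light. No young library came near a mature one, and the mean was 94.6 times higher in mature leaves in full light and 28.8 times in low light. The log2 differences were -6.28 (SE 0.42, adjusted p = 8.16e-07) and -4.88 (adjusted p = 7.89e-06). The cluster holds 1 more contig, described only as a hypothetical protein, and the summed cluster gave -5.66 and -3.89.

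The PGR members of *C. concinna* did not move as one. PGRL1, the partner that anchors PGR5 in the thylakoid, is Unigene28695 (PGR5-like protein 1A). It stood at 79.4, 86.5 and 85.1 FPKM in young and 443, 366 and 282 in mature leaves of full light. In low light it stood at 87.2, 42.7 and 57.8 FPKM in young and 508, 450 and 389 in mature leaves. The ages did not overlap in either light, with log2 differences of -2.08 (SE 0.27, adjusted p = 0.000133) and -2.88 (adjusted p = 9.52e-06). PGR5 itself, Unigene32417, is named here although it was chosen after its values were seen. It stood at 38.7, 53.2 and 55.6 FPKM in young and 45.6, 38.7 and 36.9 in mature leaves of full light, and at 84.0, 37.3 and 42.0 against 83.2, 67.4 and 46.4 in low light. The ages overlapped, and differences of 0.27 (SE 0.31, adjusted p = 0.563) and -0.32 (adjusted p = 0.438) missed the threshold. The difference between PGR5 and PGRL1, or between the species, was not tested.

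**Figure D3:**
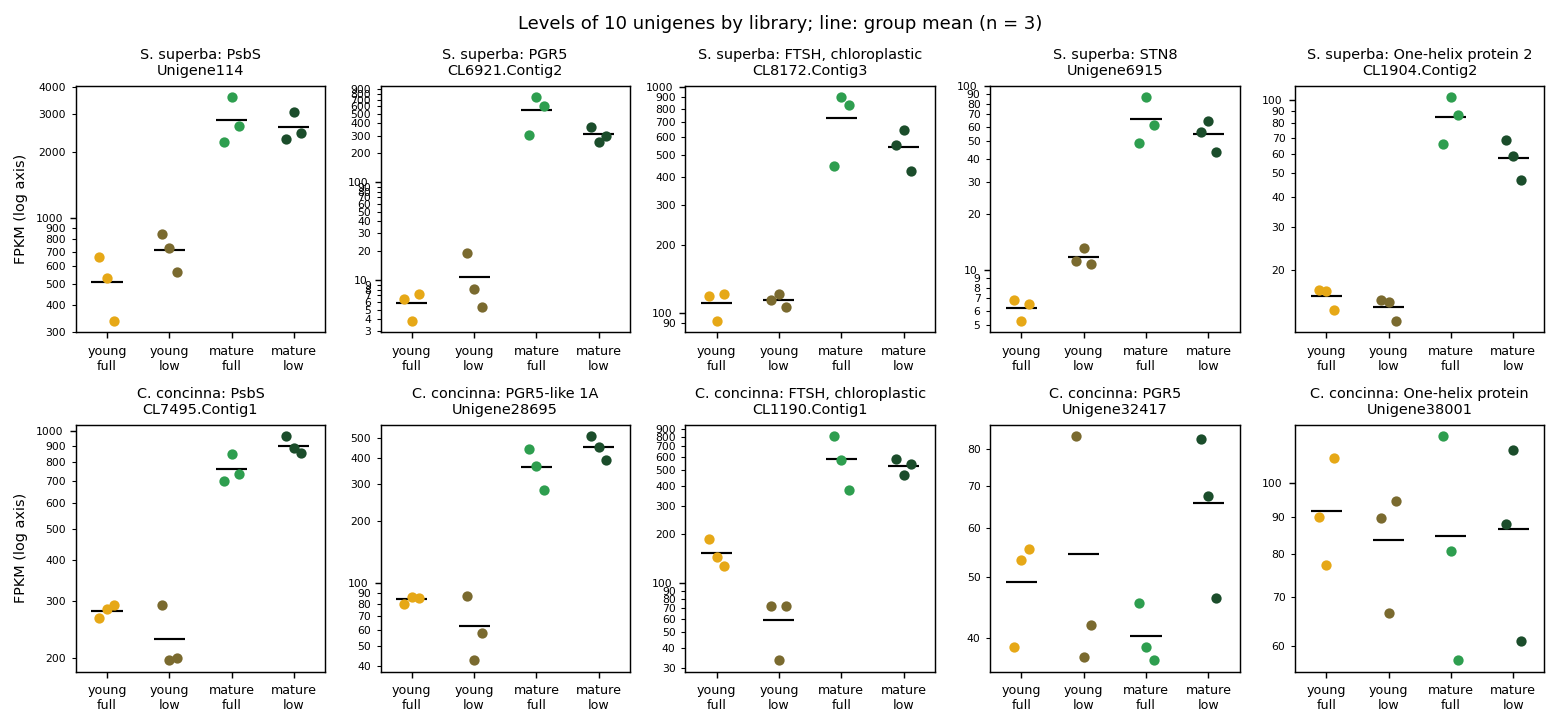
FPKM (log axis, scaled per panel) of 10 unigenes in each library, by leaf age and light; lines are group means of 3. In *S. superba* (top) all 5 unigenes stand higher in every mature library than in every young one; in *C. concinna* (bottom) PsbS, PGR5-like protein 1A and FTSH do so too, while PGR5 and the one-helix protein overlap between ages.

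The STN8 kinase of *S. superba*, Unigene6915, was higher in mature leaves as well. It stood at 6.85, 5.25 and 6.50 FPKM in young leaves of full light, 11.2, 13.1 and 10.7 in young leaves of low light, 49.0, 87.1 and 61.3 in mature leaves of full light and 55.9, 64.1 and 43.5 in mature leaves of low light. The young libraries of full light were below all others, and all young libraries were below all mature ones. The log2 difference between ages was -3.18 (SE 0.22, adjusted p = 1.1e-06) in full and -2.12 (adjusted p = 3.19e-05) in low light.

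In *C. concinna* the 6 STN8 members are all contigs of one cluster, and single contigs behaved unlike the whole. CL2114.Contig1 stood at 16.4, 11.6 and 8.82 FPKM in young and 1.74, 10.5 and 2.33 in mature leaves of full light. In low light the order turned, with 2.15, 3.15 and 3.88 FPKM in young and 9.66, 13.0 and 16.4 in mature leaves. Its differences were 1.46 (SE 0.47, adjusted p = 0.0364) in full and -1.78 (adjusted p = 0.0114) in low light, and the difference between them, the light by age term of 3.24, had an adjusted p of 0.317. CL2114.Contig2, the most abundant contig, gave -0.61 (adjusted p = 0.561) and -1.43 (adjusted p = 0.133). Summed over the 6 contigs, the cluster stood at 29.9, 26.01 and 22.4 FPKM in young and 56.4, 23.3 and 17.3 in mature leaves of full light, and at 13.2, 5.43 and 10.9 in young and 81.3, 28.3 and 24.5 in mature leaves of low light. The call of CL2114.Contig1 in full light was lost in 8 of 20 alternatives: both rescalings, only the groups compared, the summed cluster, and without young replicate 1 or 2 or mature replicate 1 or 3 of full light, where the adjusted p reached 0.135. The sum overlapped between ages in full light (-0.13, adjusted p = 0.865), where the sign of the single contig turned, and did not overlap in low light (-1.94, SE 0.49, adjusted p = 0.00685).

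FtsH proteases include the machines that degrade damaged D1. Of 26 tested FtsH members of *S. superba*, 3 were called higher and 5 lower in young leaves of full light, and 3 and 6 in low light. The full light background of this species was 36.3% of all tested unigenes called higher and 9.67% lower. Under shade these shares were 29.5% and 9.19%. In *S. superba*, CL8172.Contig3 (FTSH, chloroplastic) stood at 119, 92.0 and 122 FPKM in young and 445, 904 and 830 in mature leaves of full light. Low light gave 114, 121 and 107 FPKM in young and 552, 648 and 423 in mature leaves. Young libraries clustered tightly below all mature ones, and the log2 differences were -2.64 (SE 0.28, adjusted p = 1.71e-05) and -2.22 (adjusted p = 0.000102). CL3434.Contig5 (FTSH 2, a main subunit of the thylakoid complex in Arabidopsis) was chosen after its values were seen. It stood at 119, 96.4 and 79.3 FPKM in young and 497, 622 and 575 in mature leaves of full light. Its differences were -2.52 (SE 0.21, adjusted p = 3.79e-06) in full and -1.63 (adjusted p = 0.000144) in low light. The scarcer contig of the same cluster, CL3434.Contig7, was called in low light alone (-1.90, adjusted p = 0.00604), and the difference between the lights was not called.

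Other FtsH members of *S. superba* were higher in young leaves. CL1001.Contig1 (FTSH 12, a member of a chloroplast envelope complex in Arabidopsis rather than of the thylakoid) stood at 14.04, 11.5 and 13.9 FPKM in young and 5, 3.79 and 4.53 in mature leaves of full light. Under shade the values were 19.9, 17.01 and 16.4 FPKM in young and 4.03, 1.79 and 4.15 in mature leaves. The ages did not overlap, with differences of 1.38 (SE 0.25, adjusted p = 0.000766) and 2.17 (adjusted p = 5.14e-05). CL6239.Contig2 (FTSH 10, a mitochondrial protease in Arabidopsis) gave 0.74 (adjusted p = 0.0327) and 0.84 (adjusted p = 0.0216), and both calls ended under either rescaling and with the summed cluster, at adjusted p values up to 0.761. The call in full light also ended without young replicate 1 or 3 or mature replicate 1 of full light, and that in low light without young replicate 2 or mature replicate 3 of low light, at up to 0.114. Unigene4304 (FTSH 6) was called in low light (1.15, adjusted p = 0.00569), a call lost with quantile scaling (0.68, adjusted p = 0.05). CL8139.Contig2 was called in full light (2.98, adjusted p = 0.0238) on values of 20.0, 0 and 25.5 FPKM in young and 0, 0.14 and 0 in mature leaves, so the ages overlapped and 1 of 3 young libraries was listed at 0. That call was lost without mature replicate 1 or 3 of full light, at an adjusted p of up to 0.0567, and with only the groups compared in the fit (adjusted p = 0.0897), and the sum of the 7 contigs of its cluster gave 2.25 (adjusted p = 0.0118).

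In *C. concinna* FtsH members were called on the mature side alone, 5 of 19 tested in full light and 12 of 19 in low light. That side held 8.19% of all tested unigenes in full and 20.7% in low light. CL1190.Contig1 (FTSH, chloroplastic) stood at 187, 145 and 128 FPKM in young and 807, 578 and 375 in mature leaves of full light. In low light it stood at 72.7, 33.3 and 72.2 FPKM in young and 582, 467 and 545 in mature leaves. Each young group lay below both mature groups, and the differences were -1.88 (SE 0.34, adjusted p = 0.00137) and -3.22 (adjusted p = 2.47e-05). Unigene9624 (FTSH 8, a thylakoid subunit in Arabidopsis) stood at 39.1, 34.6 and 36.8 FPKM in young and 163, 137 and 93.9 in mature leaves of full light. Low light gave 15.3, 7.84 and 21.7 FPKM in young and 222, 134 and 160 in mature leaves. The ages did not overlap in either light. The differences were -1.77 (SE 0.33, adjusted p = 0.00181) and -3.51 (adjusted p = 1.11e-05), the latter the largest of any called member of this species. CL718.Contig2 (FTSH 2) gave -1.999 (adjusted p = 0.00238) and -3.32 (adjusted p = 5.79e-05), and Unigene11968 (FTSH 2) gave -1.56 (adjusted p = 0.00347) and -2.36 (adjusted p = 0.00018).

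The division by organelle was chosen after the values were seen and carries no test. In *S. superba*, full light, 3 chloroplast-named members were called higher and 12 lower in young leaves, with a median of -0.82 over the 24. Of the 9 mitochondrion-named members 0 were called, with a median of 0.07. The background was 36.3% of all tested unigenes called higher and 9.67% lower. All unigenes had a median of 0.47, so the mitochondrion-named median was below it as well. In low light the chloroplast-named members split 2 to 9 (median -0.63) and the mitochondrion-named ones 1 to 0 (median 0.28). Beside these, 29.5% of all tested unigenes were higher and 9.19% lower, and the median of all unigenes was 0.33. In *C. concinna* the chloroplast-named members split 1 to 12 in full light (median -0.38) and 0 to 16 in low light (median -0.74). The 5 mitochondrion-named members split 0 to 0 in full light (median -0.09) but 0 to 3 in low light (median -0.97), as low as the chloroplast-named ones. Among all tested unigenes of this species, 20.2% were higher and 8.19% lower under full light (median of all unigenes 0.11). Under shade 17.1% were higher and 20.7% lower (median of all unigenes -0.23). Reads shared between near copies of FtsH could blur this division.

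Deg proteases cut damaged photosystem II proteins on either side of the membrane. Calls for this role lay on opposite sides in the 2 species, which were not tested against each other. In full light they were for Do-like 7 contigs in *S. superba* and for Do-like 1 unigenes in *C. concinna*, which are different proteins. In *S. superba* 2 of 9 Deg members were called higher in young leaves of full light and 3 of 9 in low light. Of all its tested unigenes, 36.3% and 29.5% were called that way. In *C. concinna* 2 of 9 were called lower in full light and 1 of 9 in low light, beside 8.19% and 20.7% of all. In *S. superba* 2 of the 3 Do-like 7 contigs of one cluster were called higher in young leaves. CL2507.Contig2 stood at 39.1, 41.3 and 32.1 FPKM in young and 5.74, 8.57 and 7.10 in mature leaves of full light. Under shade the values were 21.2, 25.2 and 26.7 FPKM in young and 6.15, 8.49 and 7.41 in mature leaves. Young leaves of full light were highest, mature leaves of both lights lowest, and none of these 3 levels overlapped. The differences were 2.25 (SE 0.19, adjusted p = 3.95e-06) and 1.61 (adjusted p = 7.38e-05). The third, CL2507.Contig3, overlapped between ages in full light and missed the threshold (0.07, adjusted p = 0.853). CL2507.Contig1, of the same cluster, gave 1.23 (adjusted p = 0.00149) and 0.97 (adjusted p = 0.00811), the second with an adjusted p of 0.0765 after rescaling by median ratios. Unigene17696 (Do-like 10, mitochondrial) was called in low light (0.76, adjusted p = 0.00422), a call that ended under both rescalings, at an adjusted p of up to 0.174. The median of the 9 Deg members in full light, 0.18, turned to -0.30 under either rescaling.

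Deg 1, the lumenal protease that assists D1 turnover in Arabidopsis, was higher in mature leaves of *C. concinna*. Unigene3706 stood at 32.0, 30.8 and 34.0 FPKM in young and 57.8, 66.7 and 52.8 in mature leaves of full light. In low light it stood at 28.6, 18.4 and 32.0 FPKM in young and 91.4, 55.3 and 71.4 in mature leaves. The ages did not overlap in either light. The difference of -1.44 (SE 0.25, adjusted p = 0.000919) in low light held in every alternative run, while that of -0.85 (adjusted p = 0.0236) in full light was lost without any 1 of the young libraries of full light or mature replicate 2, at an adjusted p of up to 0.0828. CL6235.Contig2, another Do-like 1, gave -2.17 in full light (adjusted p = 0.0494) from 7.37, 4.78 and 30.2 FPKM in young and 142, 16.1 and 54.9 in mature leaves. These groups overlapped, and the call was lost in 12 of 20 alternatives, among them leaving out any 1 library but young replicate 3 and mature replicate 2 of full light and young replicate 2 of low light, at an adjusted p of up to 0.187. No Deg member of *C. concinna* was called higher in young leaves, although 7 of the 9 differences were positive in full light (median 0.53).

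One-helix proteins help assemble photosystem reaction centres in Arabidopsis, and early light-induced proteins appear in young or stressed chloroplasts. In *S. superba*, ONE-HELIX protein 2 (CL1904.Contig2) stood at 16.5, 16.4 and 13.7 FPKM in young and 65.5, 103 and 86.6 in mature leaves of full light. Low light gave 15.1, 14.8 and 12.3 FPKM in young and 68.2, 58.6 and 46.8 in mature leaves. The ages were wide apart, by -2.36 (SE 0.20, adjusted p = 3.95e-06) and -1.96 (adjusted p = 2.62e-05). In *C. concinna* the one-helix protein Unigene38001 stood at 89.8, 77.3 and 108 FPKM in young and 116, 80.7 and 57.3 in mature leaves of full light. The ages overlapped there and in low light, and differences of 0.16 (SE 0.30, adjusted p = 0.726) and -0.02 (adjusted p = 0.955) missed the threshold.

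Early light-induced protein 1 of *S. superba*, Unigene16619, gave the only light call of any member, and its name was chosen after its values were seen. It stood at 1.54, 1.99 and 2.59 FPKM in young leaves of full light, 1.86, 4.03 and 1.51 in young leaves of low light and 2.57, 2.08 and 7.69 in mature leaves of low light. In mature leaves of full light it was listed at 0 in all 3 libraries, below every other library. The light difference in mature leaves was -2.19 (SE 0.40, adjusted p = 0.0359), lower in full light, on a scale that depends on the pseudocount at such levels. The call was lost without any 1 of 9 of the 12 libraries, namely all 6 of full light, young replicate 3 and mature replicates 1 and 3 of low light, at an adjusted p of up to 0.0804, and it reached 0.249 with only the groups compared in the fit. The age difference in full light was 1.59 (adjusted p = 0.00705) and was called in every alternative that tested it. The namesake in *C. concinna*, Unigene42740, was too scarce to test, with 4.14, 2.26 and 0.44 FPKM in mature leaves of full light and 0 in all 3 mature libraries of low light.

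Among the fibrillins of plastoglobules, *S. superba* had 4 members and 2 calls in full light, both higher in mature leaves. Of all tested unigenes, 9.67% were called that way. Plastid-lipid-associated protein 4 (Unigene22946) stood at 10.9, 8.79 and 9.04 FPKM in young and 37.6, 63.6 and 44.5 in mature leaves of full light. Its differences were -2.20 (SE 0.22, adjusted p = 1.24e-05) in full and -1.41 (adjusted p = 0.000459) in low light. Protein 7 (CL5109.Contig2) stood at 2.07, 2.39 and 4.22 FPKM in young and 18.4, 48.2 and 19.8 in mature leaves of full light. In mature leaves of low light it swung from 39.5 FPKM in replicate 1 to 2.08 and 2.45 in the others, so that the lights overlapped. Its age difference in full light was -2.84 (SE 0.82, adjusted p = 0.0147), with an adjusted p of 0.0569 without mature replicate 2 of full light. The 2 contigs of the cluster summed gave steadier values, 39.5, 48.7 and 46.6 FPKM in mature leaves of low light, and a called difference in both lights (-2.26, adjusted p = 8.56e-05, and -1.65, adjusted p = 0.00119).

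The 16 plastoglobule members of *C. concinna*, 13 of them tested, held 5 calls in each light, all higher in mature leaves. Of all tested unigenes, 8.19% were called that way in full and 20.7% in low light. Protein 3 (Unigene38519) stood at 19.5, 26.1 and 26.5 FPKM in young and 88.5, 75.0 and 67.8 in mature leaves of full light, and at 26.3, 28.0 and 29.2 against 94.6, 79.5 and 101 in low light. The ages did not overlap, and the differences were -1.65 (SE 0.21, adjusted p = 0.000109) and -1.68 (adjusted p = 7.39e-05), the same size in both lights within their errors. Protein 12 (Unigene31865) gave -1.85 (adjusted p = 0.00144) and -3.07 (adjusted p = 3.35e-05). Protein 4 gave -1.88 (adjusted p = 0.00159) for CL4007.Contig1 and -2.10 (adjusted p = 0.0261) for CL4007.Contig2 in full light. The second call was lost without young replicate 1 or 2 or mature replicate 1 or 3 of full light, at an adjusted p of up to 0.0968, while the summed cluster gave -2.02 (adjusted p = 5.69e-05).

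THYLAKOID FORMATION1, which Arabidopsis needs for orderly thylakoid stacks and for stable FtsH, differed less. In *S. superba*, Unigene32629 was chosen after its values were seen. It stood at 40.7, 43.4 and 28.2 FPKM in young and 66.5, 69.9 and 64.8 in mature leaves of full light, and at 53.2, 57.1 and 50.7 against 90.6, 114 and 93.6 in low light. The 4 groups did not overlap, in the order young full, young low, mature full and mature low, with age differences of -0.85 (SE 0.18, adjusted p = 0.00239) and -0.87 (adjusted p = 0.00271). The other member, CL3173.Contig3, gave -0.71 (adjusted p = 0.058) and -0.04 (adjusted p = 0.922). In *C. concinna*, Unigene12427 ranged from 67.5 to 223 FPKM over its 12 libraries, with differences of 0.26 (adjusted p = 0.617) and -0.64 (adjusted p = 0.162). Temperature-induced lipocalin, a membrane-associated lipid carrier linked to stress tolerance in Arabidopsis, was found in *C. concinna* as Unigene1833. It ranged from 40.6 to 131 FPKM with overlapping groups and gave -0.32 (adjusted p = 0.583) and 0.05 (adjusted p = 0.933).

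The comparison of lights asks whether shade lowered or raised the class. In young leaves of *S. superba*, 0 of 48 tested members were called by limma, beside 5.33% of all tested unigenes (3.02% higher and 2.32% lower), and 9 had an unadjusted p under 0.05, 2 higher and 7 lower in full light. The groups did not overlap for 31.2% of tested members, close to the 32.1% of all tested unigenes. The members' median, full minus low light, was -0.17, against 0.06 over all unigenes, and 15 of 52 differences were positive. In mature leaves 1 member was called, 2.08% of those tested beside 0.855% of all (0.6% lower in full light), namely the early light-induced protein above. The members' median there was 0.00, against -0.08 over all unigenes.

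Single members of young *S. superba* leaves came close to a call. STN8 Unigene6915, with the separate groups given above, was 1.88 times higher in low light (-0.82, SE 0.22, adjusted p = 0.0598), and it was called with a mean of at least 5 FPKM required, under both rescalings, with only the groups compared in the fit, and without mature replicate 1 or 2 of full light. Plastid-lipid-associated protein 4 (Unigene22946) stood at 15.8, 18.1 and 16.6 FPKM in young leaves of low light, above all 3 of full light (-0.76, adjusted p = 0.0718). PGR5 gave -0.65 (SE 0.42, adjusted p = 0.411) as a single contig, with overlapping groups. The 2 contigs of its cluster summed stood at 21.3, 15.4 and 24.3 FPKM in full and 53.3, 54.5 and 41.7 in low light, which do not overlap. That sum was called lower in full light (-1.27, SE 0.22, adjusted p = 0.0101). In mature leaves the sum was 857, 1244 and 1110 FPKM in full and 821, 618 and 815 in low light (0.51, adjusted p = 0.32), and the light by age term of the sum was called (-1.77, SE 0.31, adjusted p = 0.0234).

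In *C. concinna* 0 of 54 tested members were called for light by limma in either age, beside 0.0302% of all tested unigenes in young leaves (0.0245% higher) and 0.0566% in mature leaves (0.0264% lower). In young leaves 6 members had an unadjusted p under 0.05, all higher in full light, and in mature leaves 7 did, 2 higher and 5 lower. The groups did not overlap for 14.8% of tested members in young and 16.7% in mature leaves, beside 26.7% and 10.5% of all tested unigenes. FtsH CL1190.Contig1 was 2.58 times higher in full light in young leaves (1.42, SE 0.34, adjusted p = 0.145), and FTSH 8 Unigene9624 was 2.46 times higher (1.35, SE 0.33, adjusted p = 0.15). In both, all 3 young libraries of full light were above all 3 of low light. In mature leaves the same unigenes gave 0.08 and -0.39, with overlapping groups.

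As a group, 19 of the 22 FtsH members of *C. concinna* had a positive light difference in young leaves, with a median of 0.53. All unigenes had a median of 0.30, and after rescaling by median ratios the FtsH median was 0.11 with 18 of 22 positive. The 64 members together had a median of 0.32, which the same rescaling took to 0.00. In *S. superba* the FtsH median in young leaves was -0.05 with 10 of 30 positive, and -0.12 with 10 of 30 after that rescaling. The species were not tested against each other, since their tables and RNA kits differ.

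**Figure D4:**
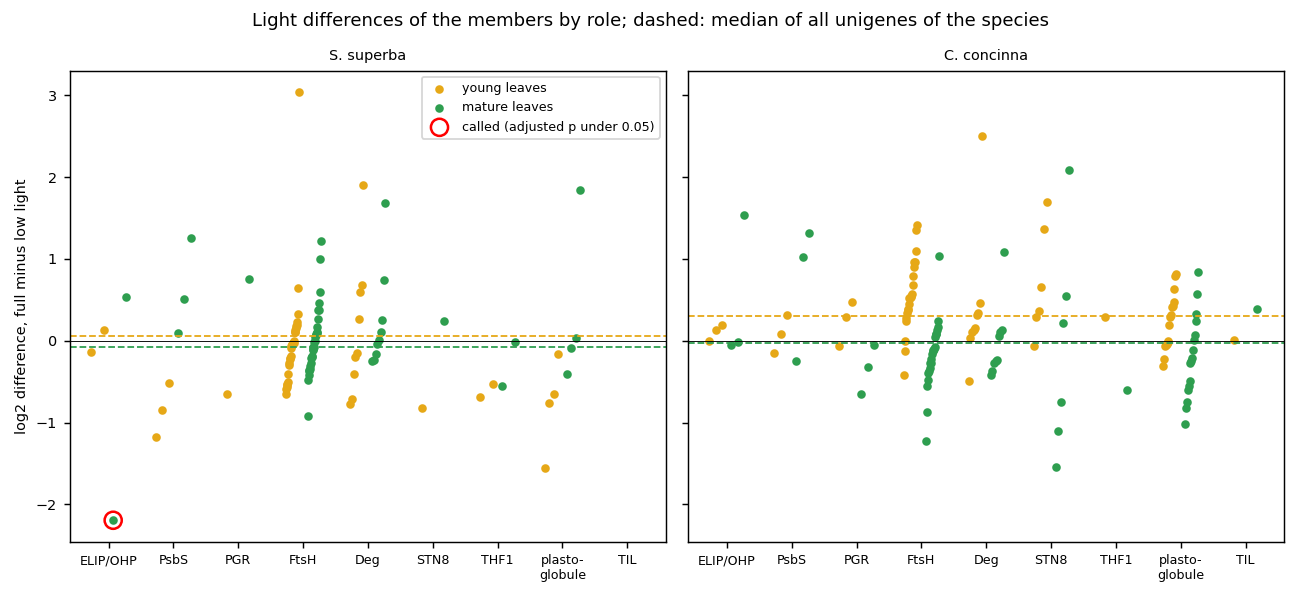
Light difference (log2, full minus low light) of every member by role, in young (yellow) and mature (green) leaves of *S. superba* (left) and *C. concinna* (right); dashed lines are the medians of all unigenes of that species and age. The 1 circled point is the early light-induced protein of *S. superba* at -2.19 in mature leaves, the only call, and the young FtsH points of *C. concinna* lie mostly above 0.

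Whether light acted differently in the 2 leaf ages was tested as the light by age term. It was called for 0 of 48 tested members of *S. superba* (11 at an unadjusted p under 0.05, 3 positive and 8 negative) and 0 of 54 of *C. concinna* (10 at an unadjusted p under 0.05, 8 positive and 2 negative). Over all tested unigenes 1.61% (1.11% positive) and 0.00566% (0.00377% positive, 0.00189% negative) were called. The members' median was -0.24 in *S. superba*, against 0.16 over all unigenes, and 0.56 in *C. concinna*, against 0.34.

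Genes that work beside the members were taken from lists by name. The xanthophyll cycle makes and removes zeaxanthin, the pigment that PsbS-dependent quenching uses, and plastid terminal oxidase drains excess electrons. Zeaxanthin epoxidase, which this list includes, removes it. Of 5 such unigenes in *S. superba*, 1 was called higher and 2 lower in young leaves of full light, and 0 and 4 in low light. Of 8 in *C. concinna*, 4 were called lower in young leaves of full light and 6 in those of low light, and 0 higher. Of all tested unigenes, 9.67% in full and 9.19% in low light were called lower in young leaves of *S. superba*. In *C. concinna* these shares were 8.19% and 20.7%. Ubiquinol oxidase 4, the plastid terminal oxidase (Unigene8388 of *S. superba*), stood at 12.8, 16.1 and 13.5 FPKM in young and 150, 207 and 218 in mature leaves of full light (-3.66, adjusted p = 3.34e-07). It was also called for light in young leaves, lower in full light (-0.84, adjusted p = 0.0478), and that call was lost in 15 of 21 alternatives, among them leaving out any 1 library but mature replicate 1 of full light, at an adjusted p of up to 0.185. Zeaxanthin epoxidase of *C. concinna* (Unigene5649) gave -1.60 (adjusted p = 0.0222) in full and -3.35 (adjusted p = 0.000188) in low light, the first of which was lost without young replicate 1 or 2 or mature replicate 1 of full light, at an adjusted p of up to 0.0891.

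The NDH complex carries the other cyclic route around photosystem I. In *S. superba*, the list held 5 unigenes, of which 2 are contigs of 1 cluster (CL5118). In young leaves of full light 4 were called lower, and in low light 4 were lower and 1 higher. Of all tested unigenes of this species, 9.67% were lower in full light, and 9.19% were lower and 29.5% higher in low light. The 1 higher, Unigene8266, is named a chlororespiratory reduction 2 family protein and not a subunit of the complex. It rests on a weak hit (e-value 1.22e-06) and ranged from 1.5 to 5.24 FPKM. Of these 5, 3 were also called lower in full than in low light in young leaves, beside 2.32% of all tested unigenes. Subunit L (Unigene37118) stood at 15.9, 12.7 and 8.04 FPKM in full and 33.0, 45.0 and 29.7 in low light, without overlap (-1.504, adjusted p = 0.0236). Subunit M (CL5118.Contig2) stood at 5.56, 3.09 and 1.98 FPKM in full and 17.2, 18.5 and 13.2 in low light (-1.99, adjusted p = 0.0277). Leaving out young replicate 2 or 3 of either light ended both calls, and young replicate 1 of low light that of subunit M, at adjusted p values up to 0.109 and 0.114. The call of subunit M also ended with its cluster summed, at -1.01, and the other contig, CL5118.Contig1, stood at 8.46, 9.37 and 7.94 FPKM in full and 9.47, 10.6 and 7.53 in low light, with overlap. Both calls ended with both low light libraries numbered 1 left out. In *C. concinna*, 1 of 2 NDH unigenes was called lower in young leaves of full light and both in low light, and 0 for light. Of all its tested unigenes, 8.19% were lower in young leaves of full light and 20.7% in those of low light.

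Photosystem II assembly and repair factors gave 0 higher and 2 lower of 6 in young leaves of *S. superba* in full light, 0 and 1 in low light, and 0 and 2 for light in young leaves. The shares of all its tested unigenes called lower in these comparisons were 9.67%, 9.19% and 2.32%. The psbY unigene (Unigene171), whose product is a small photosystem II subunit, stood at 234, 262 and 195 FPKM in full and 425, 744 and 531 in low light in young leaves (-1.26, adjusted p = 0.0307). The groups did not overlap, but the call was lost without any 1 of young replicates 1 to 3 of full light or 2 and 3 of low light, at an adjusted p of up to 0.132. In *C. concinna* 4 of 9 tested were lower in young leaves of full light, 3 of 9 in low light, and 0 were called for light. For age, 8.19% of all its tested unigenes were lower in full and 20.7% in low light. The list of Clp and other proteases also took membrane proteases (EGY1, rhomboid) and mitochondrial ClpX by name. Of its 23 tested unigenes in *S. superba*, 2 were higher and 7 lower in young leaves of full light. Under shade 3 were called each way. Of all tested unigenes of this species, 46% were called in full and 38.7% in low light. Of 32 in *C. concinna*, 5 were higher and 4 lower in full light, and 5 higher and 11 lower in low light. The shares called of all its tested unigenes were 28.4% and 37.8%. For light, 1 Clp unigene was called in young leaves of *S. superba* (CL1939.Contig2, -0.87, adjusted p = 0.0449), lost in 13 of 21 alternatives, among them leaving out any 1 library but young replicate 3 and mature replicates 1 and 2 of full light, at an adjusted p of up to 0.138. In mature leaves and for light by age, 0 unigenes of these 4 lists were called in either species.

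Markers of other leaf cells moved with leaf age beside the members. The division markers were found by words for A, B and D cyclins, cyclin-dependent kinases and kinesins. These words also match kinases and kinesins that need not act in cell division. Their 121 unigenes summed to 1406 to 1677 FPKM in young and 410 to 491 in mature leaves of full light in *S. superba*. In *C. concinna* 117 unigenes summed to 1218 to 1525 against 302 to 461. Vascular markers (30 unigenes) summed to 1331 to 4919 FPKM in young and 79.5 to 226 in mature leaves of full light in *S. superba*, and 19 unigenes to 122 to 293 against 14.6 to 38.1 in *C. concinna*. Epidermal and guard cell markers (27 and 25 unigenes) summed to 381 to 435 against 117 to 153 FPKM in *S. superba* and 232 to 296 against 162 to 178 in *C. concinna*. Chlorophyll a-b binding proteins, which mark chlorophyll-bearing cells in these green leaves (47 and 55 unigenes), summed to 10680 to 15202 FPKM in young and 17951 to 27823 in mature leaves of full light in *S. superba*, and to 11732 to 16027 against 18657 to 28457 in *C. concinna*. They also moved with light in young leaves, where every library of low light was above every library of full light in both species, and likewise in mature leaves of *S. superba*. In young leaves of *S. superba*, the division and epidermal sums were higher in every library of full light than in any of low light, and in mature leaves of *C. concinna* the epidermal sum was lower in every library of full light. In low light, sums in young against mature leaves of *S. superba* were 1202 to 1306 against 487 to 623 FPKM for division, 1510 to 2872 against 185 to 242 for vascular and 269 to 289 against 145 to 205 for epidermal markers, and 28117 to 38043 against 32934 to 44343 for chlorophyll a-b binding proteins. In *C. concinna* they were 1362 to 1613 against 426 to 490, 118 to 281 against 28.9 to 459, 160 to 280 against 193 to 204, and 20910 to 32950 against 24151 to 38203. No marker was at 0 in all libraries, and the part of cell makeup in the results was not tested.

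Relative depth, read from the lowest values, ran from 0.969 to 1.04 in *S. superba* and from 0.936 to 1.07 in *C. concinna*, and summed FPKM from 769593 to 867163 and from 788453 to 977277. The depth estimate looked only at ratios near 1 between libraries. It could not have returned a large difference, so these ranges do not show that depths were alike. Read totals are not in the tables used, so no counting error is given. Young replicates 2 and 3 of low light in *S. superba* resembled each other more than any other pair of their species, and leaving out either left 17 called members for age in low light, beside 18 with both. Calls over all unigenes for light in young leaves numbered 2717 with both, 388 without replicate 2 and 941 without replicate 3, and for light by age 822, 60 and 106. The percentages of all unigenes given for those comparisons therefore rest heavily on this pair.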

How the data were processed

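Leaf RNA of both species was sequenced on Illumina libraries, with a different RNA kit for each species per the labels, and the species were therefore kept apart throughout. The authors deposited 1 table of FPKM per unigene for each species, and RSEM 1.2.12 is named in the submitters' processing notes. The assembler, aligner, filters and read totals are not given in the sources used here. Columns were assigned to libraries by sample title.

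The members and gene lists were chosen with earlier results of these data known. Members were found by words in the best protein hit, and sequences were not analysed here. FPKM + 1 was log2-transformed, and unigenes with at least 1 FPKM in at least 3 of 12 libraries were tested with limma 3.58.1 (R 4.3.3) in 1 model of the 4 groups, with an intensity trend. Tests are two-sided and Benjamini-Hochberg adjusted over all tested unigenes, with calls under 0.05. The code was tested on simulated data. Tables and plots used Python 3.11.15, pandas 2.3.3 and matplotlib 3.10.9.

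Unigenes are named where most abundant in their role, or among up to 6 called each way with the largest change and a mean of at least 5 FPKM in the higher group, and otherwise as said in the text. Alternatives were a mean of at least 5 FPKM, testing without a filter, a pseudocount of 0.1, median-ratio and quantile scaling, a replicate block, only the groups compared, summed clusters, and leaving out libraries. Deviations of same-numbered libraries correlated at -0.03 to 0.32 in *S. superba* and -0.24 to 0.26 in *C. concinna*, with 3 and 5 of 18 pairs above 0.1, so the numbers do not pair the samples.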

Additional observations from a re-analysis of the deposited data

How the results depend on the processing

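Of 69 named calls, 51 held in every alternative that tested them and 18 were lost in at least 1. For the 52 of these calls that concern members, 1004 of 1064 alternative values kept direction and side of the threshold, 59 lost the call and 1 reversed. Differences that were not called are outside this count, and that of PsbS CL3839.Contig3 in low light turned from -0.87 to 0.19 with its cluster summed. The reversal is the STN8 contig CL2114.Contig1 of *C. concinna* in full light, at -0.13 with its cluster summed, where the sum includes its other contigs. Members called for light in young leaves of *S. superba*, 0 as reported, numbered 1 with a mean of at least 5 FPKM and with median-ratio scaling, and 2 with quantile scaling, summed clusters and only the groups compared. For light in mature leaves, the 1 call became 0 with a mean of at least 5 FPKM, with the replicate block and with only the groups compared. For light by age in *S. superba*, 0 became 1 with the pseudocount of 0.1, summed clusters, or both low light libraries numbered 1 left out. With clusters summed, where every member takes its cluster's value, age calls numbered 28 in low light in *S. superba*, and 28 in full and 38 in low light in *C. concinna*. A cluster with several members is counted once for each of them. Calls over all unigenes also rose, from 19730 to 23062 in low light in *S. superba*. In *C. concinna* they rose from 15032 to 18468 in full and from 20044 to 23771 in low light. The causes of these changes were not tested.

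Without any 1 library, the counts in *S. superba* ran from 0 to 2 for light in young leaves, 0 to 1 in mature leaves, 17 to 24 for age in full light, 17 to 21 in low light and 0 to 1 for light by age. In *C. concinna* they ran from 0 to 0 for light in either age, 10 to 15 for age in full light, 18 to 23 in low light and 0 to 1 for light by age. With the replicate block, age calls numbered 21 and 18 in *S. superba* and 16 and 23 in *C. concinna* in full and low light, and 0 members were called in all other comparisons. Read totals are not in the tables used, so depth cannot be weighed for scarce members.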
